A study of Mus musculus with 39 samples.

Results

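Collagen VI was followed through its chain genes Col6a1, Col6a2 and Col6a3, chosen by name, which are 3 of the 29980 genes in the count table. All 3 passed the filter on low counts, as did 13780 genes in all. Their messenger RNA was measured in C2C12 cells, a mouse myoblast line that fuses into myotubes when serum is lowered, with (KO) and without (WT) a knockout of Flnc, the gene of the muscle actin crosslinker filamin C. The KO cells had been edited with CRISPR/Cas9 and a guide directed at the first exon of Flnc. Both lines were sampled in growth medium with fetal bovine serum (day 0) and after 1, 2, 4 and 6 days in medium with 2% horse serum. Each of the 10 groups held 4 libraries, numbered 1, 3, 4 and 5, except KO day 2, which held 3 (1, 3 and 5). The labels name 1 KO line without saying whether it is a clone or a pool, so the edit and any other difference between the lines cannot be told apart. They do not say whether the replicates are separate cultures, so each p-value measures only the spread between these libraries.

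Collagen VI is a matrix protein of beaded microfibrils. Its chains join inside the cell as a heterotrimer with 1 chain from each gene, the trimers pair into dimers and tetramers, and the tetramers join end to end once secreted. In skeletal muscle it lies next to the basement membrane of the fibres and is made mainly by interstitial fibroblasts. In humans, mutations of any of the 3 genes cause Ullrich congenital muscular dystrophy and Bethlem myopathy. Col6a1 and Col6a2 encode the short chains of the trimer, and Col6a3 encodes the long chain, which carries many more von Willebrand factor A domains.

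The short-chain genes are linked. On GRCm38, Col6a1 (ENSMUSG00000001119) lies at chr10:76708792-76726168 and Col6a2 (ENSMUSG00000020241) at chr10:76595762-76623630, both on the minus strand, with no other protein-coding gene of the table between them. Col6a3 (ENSMUSG00000048126) lies at chr1:90765923-90843971, also on the minus strand. The longest coding sequences are 3075, 3102 and 9852 bases for Col6a1, Col6a2 and Col6a3. Below, the linked genes moved together and differed more between KO and WT than Col6a3 did. For this reason the RefSeq promoter windows of all 3 genes are shown (GRCm38.p6, 250 bases before the start and 50 from it, minus strand, written 5′ to 3′). Capitals mark every match, on either strand, to 6 motifs. The letters searched were TGACTCA for the AP-1 site and CANNTG for the E-box. They were GGGCGG for the GC box and TATAAA for the TATA box. The Smad palindrome was searched as GTCTAGAC. The last motif was the CCAAT box, searched by these letters. The windows are chr10:76725995-76726294 for Col6a1, chr10:76623355-76623654 for Col6a2 and chr1:90843922-90844221 for Col6a3.
Col6a1: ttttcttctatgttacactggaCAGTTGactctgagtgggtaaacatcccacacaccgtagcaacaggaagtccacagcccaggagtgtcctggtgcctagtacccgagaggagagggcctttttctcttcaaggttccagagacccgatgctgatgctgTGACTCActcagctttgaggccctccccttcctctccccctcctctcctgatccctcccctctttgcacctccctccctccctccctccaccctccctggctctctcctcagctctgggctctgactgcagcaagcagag
Col6a2: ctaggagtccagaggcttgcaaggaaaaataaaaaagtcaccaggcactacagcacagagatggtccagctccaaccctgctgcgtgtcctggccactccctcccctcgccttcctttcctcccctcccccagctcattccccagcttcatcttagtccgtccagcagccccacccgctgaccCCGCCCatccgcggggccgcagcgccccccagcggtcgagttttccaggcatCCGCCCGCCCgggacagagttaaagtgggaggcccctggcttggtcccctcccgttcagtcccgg
Col6a3: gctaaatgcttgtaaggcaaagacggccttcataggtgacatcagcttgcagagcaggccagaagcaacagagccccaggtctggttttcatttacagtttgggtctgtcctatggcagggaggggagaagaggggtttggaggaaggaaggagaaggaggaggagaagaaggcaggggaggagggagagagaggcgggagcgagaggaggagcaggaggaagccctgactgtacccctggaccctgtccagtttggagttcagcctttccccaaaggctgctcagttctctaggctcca
The Col6a1 window held 1 AP-1 match, at -90 to -84 from the start, and 1 E-box match at -228 to -223. Of all 32851 RefSeq windows of this length, 5.2% held an AP-1 match and 72.3% an E-box. The Col6a2 window held 3 GC box matches, of which those at -15 to -10 and -11 to -6 overlap, and 35.7% of all windows held at least 1. RefSeq gives Col6a2 another start 226 bases upstream, whose window held 1 GC box match and is not printed. The Col6a3 window held no match to any of the 6 motifs, and none of the 3 printed windows held a TATA box (13.6% of windows), Smad (0.213%) or CCAAT box (37.4%) match. The GC content was 57.3% for Col6a1, 64.3% for Col6a2 and 56.3% for Col6a3, with 3, 16 and 3 CpG dinucleotides. The linked genes thus shared no motif match in these windows.

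Total counts ran from 6838281 to 28902526 per library and were lowest on day 6, at 10.2 M ± 3.76 in KO and 11.5 M ± 3.64 in WT (mean ± SD, n = 4 each). Levels are given as CPM, the counts scaled to library size with edgeR's TMM factors, and log2 fold changes come from an edgeR fit of all 39 libraries. A gene was called at an adjusted p under 0.05 (Benjamini-Hochberg over all genes tested). Flnc itself stood at 16.5 to 158 CPM over the 19 KO libraries, against 400.4 to 2266 CPM over the 20 WT libraries. Its log2 fold change lay between -4.52 and -3.71 on the 5 days, and the groups did not overlap on any day. All 14 myogenic markers of a list passed the filter on low counts, and their summed level on day 6 was 7268 to 12350 CPM in KO and 25060 to 39320 CPM in WT.

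The linked genes Col6a1 and Col6a2 were higher in KO cells on every day, with the largest fold changes on days 4 and 6. They were lower in WT on those days than on day 0, and in KO no such decrease was called. Col6a3 was not called on days 0 and 1 and was higher in KO from day 2. Of the 3 chains, 2 were called higher in KO on day 0 and on day 1, where 6.46% and 8.1% of all genes tested were called higher. All 3 chains were called higher on days 2, 4 and 6, where 7.64%, 13.3% and 14.5% of genes were. In bulk RNA, fewer cells of a type and less RNA per cell cannot be told apart.

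On day 0, Col6a1 stood at 525, 226, 1012 and 340.4 CPM in the KO libraries, against 38.4, 27.5, 217 and 19.9 CPM in WT (replicates 1, 3, 4 and 5 in each). The groups did not overlap, but WT replicate 4 came near the lowest KO library. KO over WT, the log2 fold change was 2.80 ± 0.90 (SE, adjusted p = 0.00317). Without WT replicate 4 it was 4.20 (adjusted p = 4.55e-05), a larger difference. On day 1, Col6a1 stood at 426, 254, 701 and 712 CPM in KO, against 49.8, 36.7, 139.9 and 32.1 CPM in WT, a log2 fold change of 3.02 ± 0.60 (adjusted p = 0.00136). Replicate 4 was again the highest WT library, and without it the log2 fold change was 3.73. On day 2, Col6a1 stood at 274, 421 and 515 CPM in KO (replicates 1, 3 and 5), against 18.7, 15.7, 22.6 and 13.3 CPM in WT. The WT libraries lay close together on this day, at most 1.69 times apart, and the log2 fold change was 4.52 ± 0.31 (adjusted p = 3.31e-05). On day 4, Col6a1 stood at 289, 1146, 1064 and 914 CPM in KO, against 5.41, 2.42, 7.48 and 0.922 CPM in WT. Replicate 1 was the low KO library. On day 6, Col6a1 stood at 328, 625, 604 and 630.0 CPM in KO, against 3.02, 1.10, 4.69 and 0.241 CPM in WT. The KO means on days 4 and 6 lay above 99.3% and 98.5% of genes tested, whereas the WT means lay above 26.7% and 22% of them. Col6a1 had log2 fold changes of 7.70 ± 0.79 on day 4 (adjusted p = 1.61e-08) and 7.86 ± 0.87 on day 6 (adjusted p = 1.55e-08). Without WT replicate 4 the day 6 value was 8.58.

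Col6a2 followed the same course at larger fold changes. On day 0, it stood at 301, 136, 593 and 202 CPM in KO, against 11.7, 10.2, 52.3 and 4.02 CPM in WT. WT replicate 4 was again far above the other WT libraries, and the groups did not overlap. Its log2 fold change was 3.98 ± 0.88 (adjusted p = 4.44e-05), or 5.15 without that library. On day 1, Col6a2 stood at 183, 157, 392 and 296 CPM in KO, against 15.8, 6.95, 34.0 and 7.20 CPM in WT. That day's log2 fold change was 4.01 ± 0.62 (adjusted p = 3.05e-05), or 4.68 without WT replicate 4. On day 2, Col6a2 stood at 77.4, 159 and 164 CPM in KO, against 5.65, 3.20, 4.10 and 3.63 CPM in WT, a log2 fold change of 5.00 ± 0.39 (adjusted p = 4.39e-06). The KO group had its lowest mean on this day, 133 ± 48.4 CPM (SD, n = 3). On day 4, Col6a2 stood at 86.7, 444, 453 and 302 CPM in KO, against 0.721, 0.745, 1.48 and 0.231 CPM in WT. On day 6, it stood at 90.5, 281, 228 and 214 CPM in KO, against 0.503, 0.314, 1.14 and 0 CPM in WT. Replicate 5 of WT day 6 had no Col6a2 count, which allows up to 3 counts or 0.362 CPM. Summed over 4 libraries, Col6a2 had 20567 counts in KO and 52 in WT on day 4, and 8769 in KO and 26 in WT on day 6, so the late WT values rest on few counts. Col6a2 had log2 fold changes of 8.63 ± 0.72 on day 4 (adjusted p = 2.16e-09) and 8.51 ± 0.83 on day 6 (adjusted p = 4.34e-09), or 9.50 without WT replicate 4 of day 6. Ranked by fold change from the highest of 13780 genes, Col6a2 stood 14th on day 4 and 18th on day 6, and Col6a1 28th and 29th.

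The levels of Col6a3 overlapped between the lines at the start and parted from day 2. On day 0, it stood at 531, 523, 942 and 789 CPM in KO, against 428, 688, 494 and 406 CPM in WT. On day 1, it stood at 389.6, 127, 824 and 340.0 CPM in KO, against 299.6, 197, 542 and 205 CPM in WT. The groups overlapped on both days, and the log2 fold changes, 0.47 ± 0.27 (adjusted p = 0.385) and 0.43 ± 0.65 (adjusted p = 0.44), were not called. On day 2, Col6a3 stood at 104, 191 and 194 CPM in KO, against 44.3, 48.1, 65.5 and 58.5 CPM in WT, and the groups separated. On the log2 scale the change was 1.59 ± 0.32 (adjusted p = 0.00246). On day 4, it stood at 102, 147, 155 and 128 CPM in KO, against 8.77, 7.82, 13.9 and 13.7 CPM in WT. On day 6, it stood at 119, 158, 149.7 and 95.6 CPM in KO, against 7.04, 7.22, 10.6 and 10.6 CPM in WT. Within the groups of days 4 and 6 the libraries lay close together, at most 1.78 times apart, and the KO and WT groups were far apart. Col6a3 had log2 fold changes of 3.58 ± 0.25 on day 4 (adjusted p = 1.46e-08) and 3.87 ± 0.23 on day 6 (adjusted p = 4.3e-09).

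**Figure D1:**
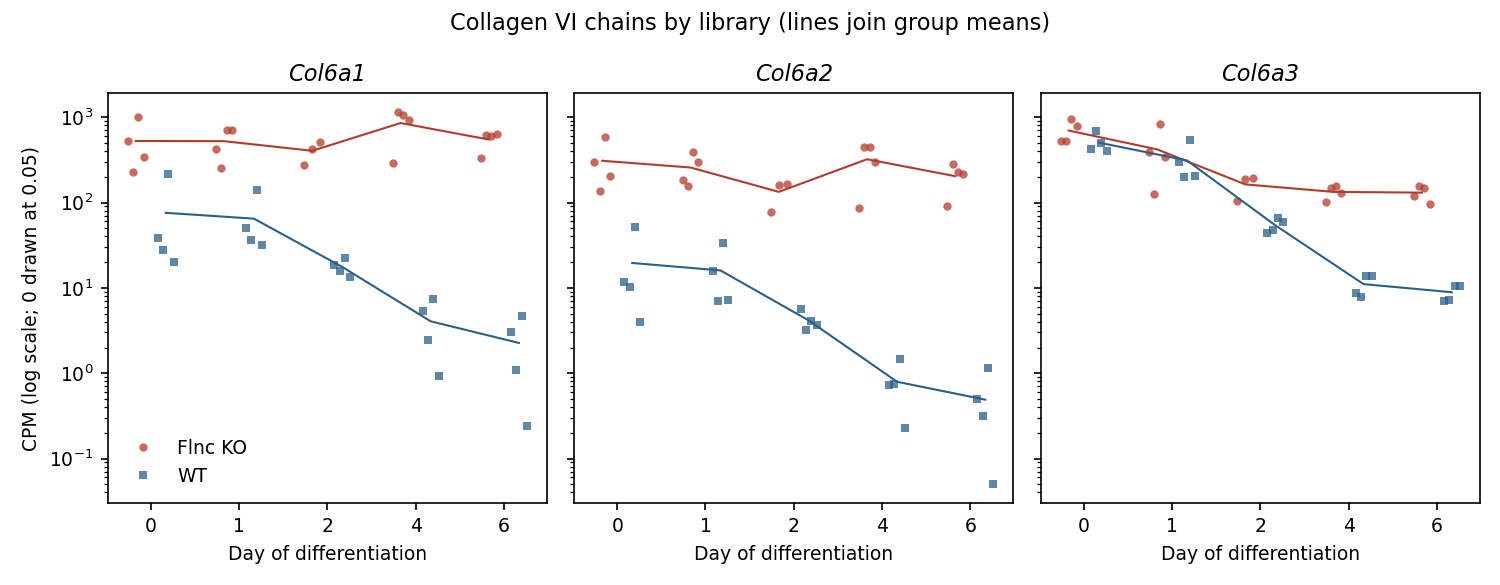
CPM on a log axis of Col6a1, Col6a2 and Col6a3 in each library by day (KO circles left of WT squares), with lines through the group means. The 19 KO libraries stay above the WT libraries of their day for Col6a1 and Col6a2 on all 5 days, while Col6a3 overlaps on days 0 and 1 and separates from day 2. The WT day 6 library with 0 CPM of Col6a2 is drawn at 0.05.

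By group mean, the order of Col6a1 was KO day 4 (853 CPM), KO day 6 (547), KO day 0 (526), KO day 1 (523), KO day 2 (404), WT day 0 (75.7), WT day 1 (64.6), WT day 2 (17.6), WT day 4 (4.06) and WT day 6 (2.26). Neighbours in this order had overlapping ranges except at the steps below KO day 2, WT day 1 and WT day 2. The order of Col6a2 began with KO day 4 (321 CPM), day 0 (308), day 1 (257), day 6 (203) and day 2 (133), followed by WT days 0, 1, 2, 4 and 6 (19.6, 16.0, 4.15, 0.793 and 0.489), with the ranges parting at the same steps. For Col6a3 the lines interleaved: KO day 0 (696 CPM), WT day 0 (504), KO day 1 (420.0), WT day 1 (311), KO days 2, 4 and 6 (163, 133 and 131), then WT days 2, 4 and 6 (54.1, 11.1 and 8.88). Here the ranges parted below WT day 1, KO day 6 and WT day 2.

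Within WT, all 3 chains fell during differentiation. Against day 0, none was called on day 1, where 1.87% of genes were called lower, and all 3 were called lower on days 2, 4 and 6, where 13.6%, 24.3% and 27.8% of genes were. On day 6 against day 0, the log2 fold change was -5.01 ± 1.14 for Col6a1 (adjusted p = 1.81e-06), -5.13 ± 1.06 for Col6a2 (adjusted p = 2.69e-06) and -5.82 ± 0.24 for Col6a3 (adjusted p = 5.41e-12). Col6a3 ranked 143rd from the lowest of the 13780 fold changes of that comparison. WT day 0 replicate 4 set much of the size of this decrease for the linked genes. Without it the day 6 values were -3.56 for Col6a1 and -3.91 for Col6a2, and the day 4 values -2.76 and -3.37 in place of -4.20 and -4.59, all still called. The day 2 calls were lost without it: the log2 fold change was -0.70 for Col6a1 (adjusted p = 0.426, against -2.11 and 0.0154 with it) and -1.06 for Col6a2 (adjusted p = 0.197, against -2.23 and 0.00792). Without WT day 6 replicate 4 the day 6 values were -5.73 and -6.11. The decrease of Col6a3 on day 2, -3.22 ± 0.21, lay between -3.33 and -3.05 without any 1 library.

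Within KO, the chains parted. Against day 0, Col6a1 and Col6a2 were called in neither direction on any day, with log2 fold changes between -0.38 and 0.70 for Col6a1 and between -1.21 and 0.06 for Col6a2. On day 6 they were 0.06 ± 0.52 (adjusted p = 0.957) and -0.60 ± 0.58 (adjusted p = 0.422), which does not show that the levels held. Col6a3 was called lower in KO on days 2, 4 and 6, where 13.9%, 19.6% and 23.1% of genes were called lower. Its log2 fold changes were -2.09 ± 0.36 (adjusted p = 0.000227), -2.39 ± 0.25 (adjusted p = 3.75e-06) and -2.42 ± 0.27 (adjusted p = 2.53e-06). On day 1, where 3.81% of genes were called lower, it was -0.73 ± 0.59 (adjusted p = 0.197), and without KO day 1 replicate 4 it was -1.29 and called (adjusted p = 0.0183).

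The change since day 0 differed between the lines for all 3 chains. In the test of genotype by day over all later days together, which called 7.74% of genes, the adjusted p was 0.000121 for Col6a1, 0.000317 for Col6a2 and 2.83e-06 for Col6a3. Taken day by day, no chain was called on day 1, where 0% of genes were called higher, or on day 2, where 0.327% were. For day 1, edgeR gave 0 called genes and 341 at an unadjusted p under 0.05, and DESeq2 called 1. All 3 were called on day 4 (4.54% of genes higher) and on day 6 (5.91%). The day 6 difference, KO minus WT in log2 change since day 0, was 5.06 ± 1.25 for Col6a1 (adjusted p = 0.000539), 4.53 ± 1.21 for Col6a2 (adjusted p = 0.00237) and 3.41 ± 0.36 for Col6a3 (adjusted p = 2.73e-05). On day 4 it was 4.90 ± 1.20, 4.65 ± 1.14 and 3.12 ± 0.37. Without WT day 0 replicate 4 the values for Col6a1 were 3.49 on day 4 and 3.63 on day 6 and those for Col6a2 3.47 and 3.33, and all 4 stayed called. Without WT day 6 replicate 4 the day 6 values were 5.79 and 5.51.

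**Figure D2:**
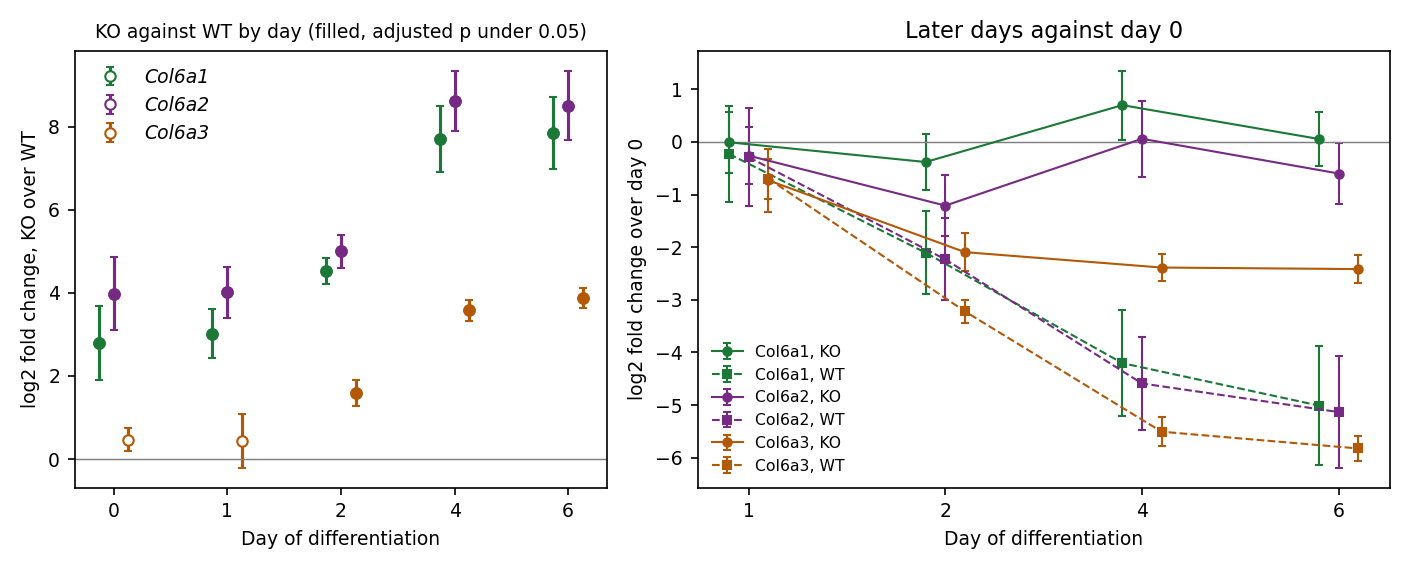
Left, log2 fold change of KO over WT by day for each chain, filled where called. Right, log2 fold change of each later day over day 0 (KO solid lines and circles, WT dashed lines and squares). Days are evenly spaced on the axis and error bars are SE. On day 6 the KO lines stand at 0.06 for Col6a1, -0.60 for Col6a2 and -2.42 for Col6a3, and the 3 WT lines between -5.82 and -5.01.

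The balance between Col6a3 and the linked pair was measured in each library as log2 CPM of Col6a3 minus the mean log2 CPM of Col6a1 and Col6a2. Gene lengths do not enter a comparison of this value between groups, and neither, apart from the prior count, does the scaling between libraries. On day 0 it was 0.42, 1.57, 0.28 and 1.59 in KO, against 4.33, 5.35, 2.21 and 5.48 in WT. On day 6 it was -0.53, -1.41, -1.31 and -1.94 in KO, against 2.37, 3.36, 2.14 and 5.79 in WT. The KO values lay below all WT values on every one of the 5 days. The KO minus WT difference was -3.38 ± 0.83 on day 0, -3.42 ± 0.37 on day 1, -3.16 ± 0.20 on day 2, -4.54 ± 0.71 on day 4 and -4.71 ± 0.88 on day 6 (SE). In the exact two-sided permutation test over the libraries of a day, p was 0.0286 on each day, the smallest these group sizes allow, and 0.0286 after adjustment over the 5 days. That test takes the libraries as unpaired. Set side by side by replicate number, KO was the lower library in every pair (4 pairs a day, 3 on day 2). An exact paired permutation cannot give a p below 0.125 with 4 pairs or 0.25 with 3. Taken as paired, the design therefore cannot call this difference. The size of the difference rests in part on single WT libraries. Without WT day 0 replicate 4 it was -4.09, without WT day 4 replicate 5 it was -3.94, and without WT day 6 replicate 5 it was -3.92. By these group means, the linked genes differed more between the lines than Col6a3 did on every day, by 8.92 to 26.2 times. The range holds for the prior count of 2. With a prior count of 0.5 the log2 difference was -4.65 on day 4 and -5.09 on day 6. Between days the same measure had KO means of 0.97, 0.01, -0.50, -1.78 and -1.30 and WT means of 4.34, 3.43, 2.66, 2.76 and 3.41 on days 0, 1, 2, 4 and 6. In KO, the values of days 4 and 6 lay below all values of day 0 (exact permutation p = 0.0286 for each), but none of the 8 comparisons with day 0 passed adjustment (lowest adjusted p = 0.114).

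Against each other, Col6a1 and Col6a2 changed less. The log2 difference Col6a1 minus Col6a2 averaged 0.76 ± 0.03 in KO and 1.86 ± 0.38 in WT on day 0 (SD, n = 4 each). It averaged 1.00 ± 0.28 in KO and 2.05 ± 0.31 in WT on day 1 (SD, n = 4 each). The groups did not overlap on these 2 days (exact permutation p = 0.0286 each), but the adjusted p over the 5 days was 0.0715. On days 2, 4 and 6 the KO means were 1.63, 1.48 and 1.49 and the WT means 2.06, 2.04 and 1.88, with overlapping groups and adjusted p = 0.171 for each (exact permutation). Set side by side by replicate number, a comparison chosen after the values were seen, the KO library was the lower one in all 4 pairs on day 4 and in all 4 on day 6, and in 2 of 3 on day 2. On day 6, unlike days 2 and 4, the deviations of same-numbered libraries did not all correlate above 0.1, so the numbers were not taken to pair them. The mean differences over these pairs were -0.56 on day 4 and -0.39 on day 6. An exact paired permutation of 4 pairs cannot give a p below 0.125, so this design cannot call them. Within KO, the values of days 2, 4 and 6 lay above all values of day 0, with differences of 0.87, 0.72 and 0.73 (exact permutation p = 0.0286, adjusted p = 0.0763 for each over 8 comparisons). Within WT, the differences from day 0 lay between 0.02 and 0.20 with the prior count of 2. With a prior count of 0.5 they were 0.31 on day 4 and 0.52 on day 6, where WT Col6a2 rests on few counts. KO minus WT was then -0.70 on day 4 and -0.90 on day 6 (exact permutation, adjusted p = 0.0714 each). The late values of Col6a1 minus Col6a2 thus depend on the prior count.

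**Figure D3:**
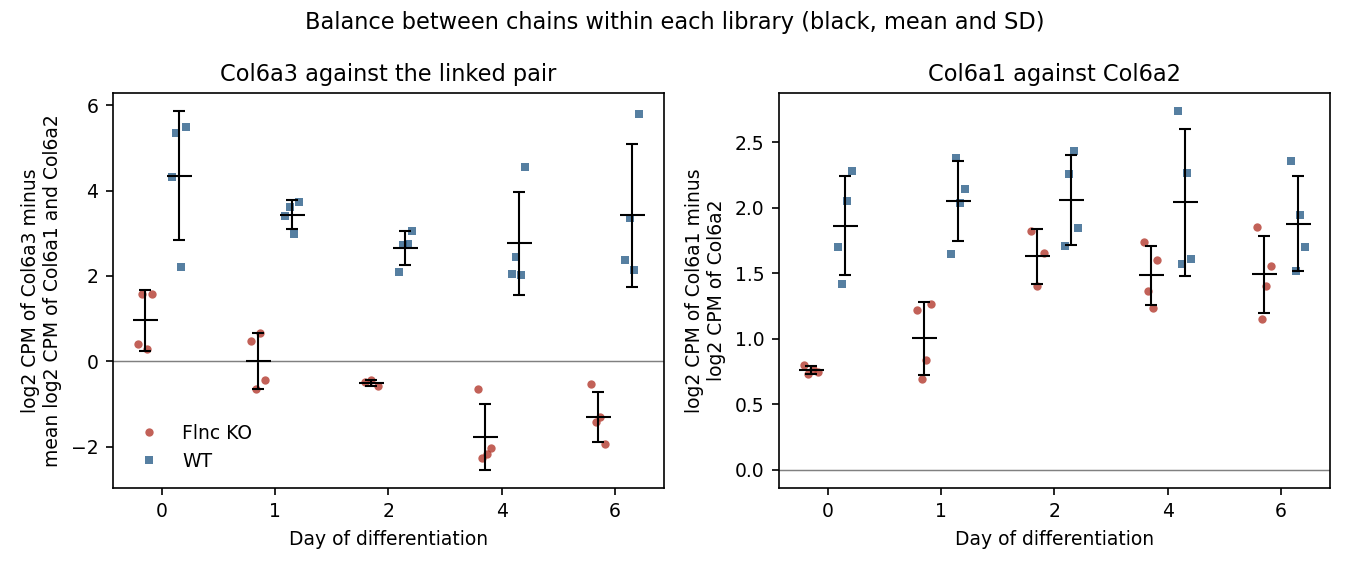
Left, log2 CPM of Col6a3 minus the mean log2 CPM of Col6a1 and Col6a2 in each library by day (KO circles left of WT squares), with mean and SD in black. Right, log2 CPM of Col6a1 minus that of Col6a2. In the left panel all KO values lie below all WT values on each day, and the KO means are 0.97 on day 0 and -1.78 on day 4. In the right panel the lines separate on days 0 and 1 and overlap after that.

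Levels of the genes relative to each other were compared per kilobase of exon (union of exons, 4380 bases for Col6a1, 8326 for Col6a2 and 11963 for Col6a3). On day 0, Col6a1 stood at 120.1 ± 79.1, Col6a2 at 37.0 ± 24.2 and Col6a3 at 58.2 ± 17.2 CPM per kb in KO (SD, n = 4). In WT on the same day they stood at 17.3 ± 21.6, 2.35 ± 2.65 and 42.1 ± 10.7 (SD, n = 4). The long chain made up 30.3% ± 10.3 of the 3 chains per kb in KO and 74.0% ± 21.5 in WT. On day 6, it made up 7.23% ± 2.43 in KO and 62.1% ± 24.3 in WT, while Col6a1 made up 78.0% ± 2.38 in KO and 34.1% ± 21.8 in WT (SD, n = 4 each). Col6a1 was thus the main transcript per kb in KO on all 5 days, with mean shares of 53.2% on day 0 and 79.4% on day 4. Col6a2 was the lowest of the 3 in WT on every day, at 3.17% to 5.58% of the total. Per kb of the longest coding sequence, the share of Col6a3 on day 0 was 23.7% in KO and 69.6% in WT, and Col6a2 rather than Col6a3 was next to Col6a1 in KO, so the order of these levels depends on the length used.

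Libraries of a group that were high for Col6a1 were high for Col6a2. Across libraries, the deviations of log2 CPM from the group mean had Pearson r = 0.963 (Spearman rho = 0.893) over the 19 KO libraries and r = 0.948 (rho = 0.931) over the 20 WT libraries. The permutation p within groups was 3e-05 in KO and 1e-05 in WT, the last being the smallest that 1e+05 resamples can give, and 9e-05 and 6e-05 after adjustment over 6 relations. Without the 2 libraries farthest from the median of Col6a1, r was 0.940 in KO and 0.912 in WT. With Col6a3 the relation was looser. In KO, r was 0.622 for Col6a1 (rho = 0.598, adjusted permutation p = 0.00529 and 0.0185) and 0.592 for Col6a2 (rho = 0.758, adjusted permutation p = 0.0026 and 0.00086), and 0.634 and 0.652 without the 2 farthest libraries. In WT, r was 0.183 for Col6a1 and 0.272 for Col6a2 (rho = 0.164 and 0.191), with adjusted permutation p = 0.47 and 0.365. Without the 2 farthest libraries, these r were 0.341 and 0.458. These permutations treat the libraries of different days as separate. If a replicate number marks a shared culture, the libraries are not independent and the p-values are too small, in WT above all, where the order of the numbers recurred. Whether these correlations differ between the lines was not tested.

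The deviations also recurred by replicate number in WT. Replicate 4 was the highest and replicate 5 the lowest WT library for Col6a1 on all 5 days, and the whole order, 4 then 1, 3 and 5, was the same on each (1 distinct order). In KO, the 4 days with 4 libraries had 4 different orders of Col6a1. The 3 libraries of KO day 2 stood in the same order as on day 6. Replicate 1 was the lowest KO library on 3 of the 5 days and replicate 3 on the other 2. For Col6a2, replicate 4 was the highest WT library on 4 of the 5 days, and 4 distinct orders occurred. The highest WT library had 10.9 times the Col6a1 level of the lowest on day 0, 1.69 times on day 2 and 19.4 times on day 6. Whether a number marks a shared culture is not stated in the labels.

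**Figure D4:**
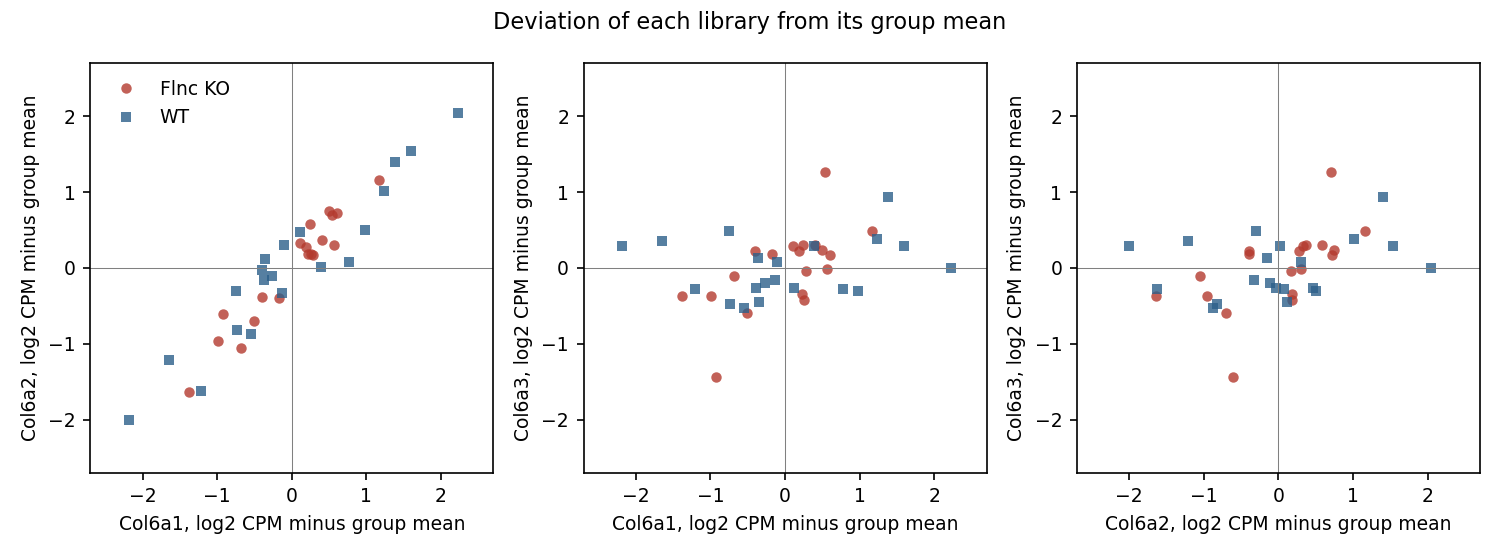
Deviation of log2 CPM from the group mean in each library for each pair of chains (KO circles, WT squares; 19 KO and 20 WT libraries). The points of Col6a1 against Col6a2 lie along a line (r = 0.963 in KO and 0.948 in WT), and those against Col6a3 scatter, more so in WT.

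Of the protein-coding genes within 250 kb of the linked pair, 5 of 8 were tested. Pcbp3, a gene of the poly(C)-binding protein family 35.7 kb beyond Col6a1, was the one called higher in KO on all 5 days. It averaged 31.4 CPM in KO and 9.19 CPM in WT on day 0, a log2 fold change of 1.77 (adjusted p = 0.000356). On day 6 it averaged 10.8 CPM in KO and 1.83 CPM in WT, a log2 fold change of 2.55 (adjusted p = 3.49e-06). Pcnt, which encodes the centrosome protein pericentrin, and Mcm3ap, which encodes an mRNA export factor, were called on no day, with log2 fold changes between -0.20 and 0.53 and between -0.27 and 0.29. Ybey was called higher on day 2 (0.76, adjusted p = 0.0102), and Lss, the lanosterol synthase of cholesterol synthesis 38.6 kb from Col6a2, was called lower on day 4 (-1.41, adjusted p = 0.01). Ftcd, the closest of the 8 at 5.42 kb from Col6a2, had 0 counts in every library. Around Col6a3, 2 of 4 genes were tested. Cops8 was called on no day (-0.30 to 0.14), and Mlph, at 0.355 CPM in KO and 0.0603 CPM in WT on day 6, was called higher on that day alone (adjusted p = 0.0358).

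**Figure D5:**
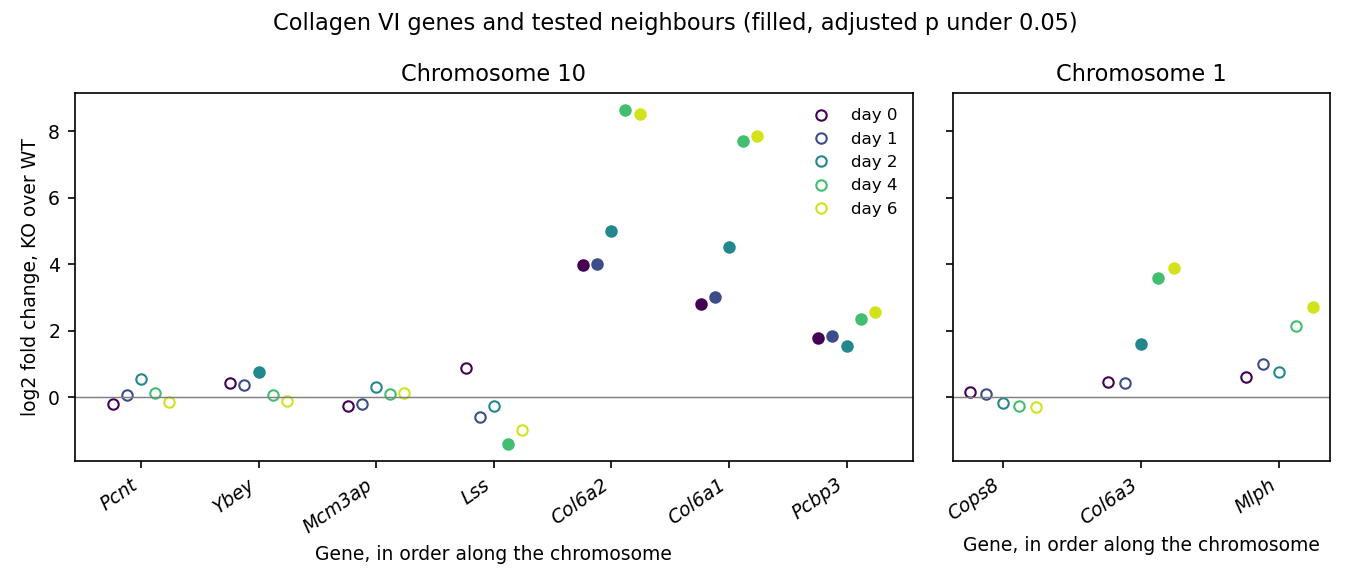
Log2 fold change of KO over WT on each day (colours) for the chain genes and the tested protein-coding genes within 250 kb, in chromosomal order, filled where called. Col6a1, Col6a2 and Pcbp3 are filled on all 5 days, while Pcnt, Mcm3ap and Cops8 stay between -0.30 and 0.53.

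By profile over the 10 group means of log2 CPM, each centred on its own mean, the gene most like Col6a1 among 12915 protein-coding genes was Col6a2, and the reverse, with a root mean square distance of 0.43. Next to Col6a1 came Bicc1, Lama4, Ncf4 and Slc1a3 (0.67 to 0.83), and next to Col6a2 came Lama4, Kcnj16, Slc1a3 and Bicc1 (0.75 to 0.99). Lama4, the laminin alpha-4 chain of basement membranes, averaged 66.7 CPM in KO and 0.387 CPM in WT on day 6. Col6a3 stood 198th in the list of Col6a1 and 190th in that of Col6a2. In the list of Col6a3 itself, Col6a1 stood 4857th and Col6a2 8770th. The genes most like Col6a3 were Apln (0.40), Pdgfrb (0.51), P4ha3 (0.51), Fam131b (0.52) and Sfrp1 (0.55). Pdgfrb, the PDGF receptor beta of pericytes and fibroblasts, averaged 338 CPM in KO and 210.4 CPM in WT on day 0, and 68.5 CPM in KO and 5.30 CPM in WT on day 6. These distances share their libraries and are given as a description. They also grow with a difference in range, which was 8.89, 9.29 and 6.26 log2 units for Col6a1, Col6a2 and Col6a3. By Pearson r in place of distance, Col6a1 and Col6a2 were again first for each other (r = 0.996), and 1 of the 5 genes of Col6a3, Apln, recurred. Col6a3 had r = 0.78 with Col6a1 and 0.779 with Col6a2.

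The other collagen VI chain genes were near or at 0. Col6a5 and Col6a6 had 0 counts in every library, and Col6a4 averaged at most 0.400 CPM in KO and 0.133 CPM in WT, both on day 1. These 3 genes did not pass the filter.

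Enzymes that modify and fold collagen chains were mixed. Of 17 tested genes of a list of 18, 3 were higher and 0 lower in KO on day 0, and 6 were higher and 2 lower on day 6. Over all genes tested, 9.09%, 9.93%, 10.3%, 14.2% and 14.4% were called lower in KO on days 0, 1, 2, 4 and 6. On the same days, 6.46%, 8.1%, 7.64%, 13.3% and 14.5% were called higher. The counts of every list below are to be read beside these shares. The median log2 fold change of the list on day 6 was 0.46, against 0.02 over all genes. P3h2, a prolyl 3-hydroxylase, was called higher on all 5 days and averaged 27.9 ± 11.2 CPM in KO and 3.22 ± 1.17 CPM in WT on day 0 (SD, n = 4 each). P4ha3, a catalytic subunit of prolyl 4-hydroxylase, was called from day 2 and averaged 6.49 CPM in KO and 0.435 CPM in WT on day 6. P4ha1, the main such subunit, went the other way and averaged 145 CPM in KO and 282 CPM in WT on day 6 (log2 fold change -0.96, adjusted p = 0.00146). Crtap, the partner of prolyl 3-hydroxylase 1, was higher on days 4 and 6 (0.83 and 0.70).

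Of 17 tested genes for collagen secretion and processing (19 listed), 2 were higher and 2 lower on day 0, and 5 were higher and 2 lower on day 6, with a median of 0.17 on day 6. Lox, the lysyl oxidase that crosslinks fibrillar collagens, was called higher on all 5 days and averaged 999 ± 452 CPM in KO and 531 ± 139 CPM in WT on day 0, with overlapping groups (SD, n = 4 each). Mmp14, a membrane metalloproteinase, and Loxl3, a lysyl oxidase relative, were called higher from day 2, with log2 fold changes of 1.68 and 1.76 on day 6. Pcolce2, an enhancer of procollagen cleavage, was called lower from day 1 and averaged 1.51 CPM in KO and 21.1 CPM in WT on day 6.

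Matrix partners of the microfibrils changed in both directions. Of 16 tested genes (22 listed), 1 was higher and 2 were lower on day 0, and 6 were higher and 3 lower on day 6, with a median of 0.76 on day 6. Bgn, which encodes biglycan, a proteoglycan that binds collagen VI, was called lower on all 5 days. It averaged 5.41 ± 4.11 CPM in KO and 875.5 ± 427 CPM in WT on day 0, a log2 fold change of -7.34 (adjusted p = 2.81e-07). On day 6 it averaged 4.37 ± 2.22 CPM in KO and 45.4 ± 29.4 CPM in WT (log2 fold change -3.36, adjusted p = 0.000961). The groups overlapped on day 4 alone of the 5 days, where Bgn averaged 20.2 ± 29.3 CPM in KO and 97.0 ± 55.7 CPM in WT (SD, n = 4 each). Matn2, a matrilin, and Vwa1, which encodes the perlecan-binding matrix protein WARP, were called higher from day 1, with log2 fold changes of 2.67 and 3.59 on day 6. Col1a2, a chain of collagen I, was called higher on all 5 days and averaged 389.9 CPM in KO and 64.3 CPM in WT on day 6 (log2 fold change 2.60). Col1a1, of the same collagen, did not follow. It was called on no day before day 6. On day 6 it was called lower, at 0.426 CPM in KO and 2.95 CPM in WT (log2 fold change -2.655).

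Among 13 tested receptors of a list of 14, 0 were higher and 2 lower on day 0, and 2 were higher and 3 lower on day 6, with a median of -0.38 on day 6. Over all genes tested, 14.5% were called higher and 14.4% lower on day 6. The anthrax toxin receptors, which bind collagen VI, were called in opposite directions on day 4 alone. The log2 fold changes were then 1.49 for Antxr1 and -0.91 for Antxr2. On days 0 and 1 Antxr1 was not called and pointed lower too (-0.47 and -0.20). On day 6 Antxr2 was not called (-0.66). Antxr1 was called higher on days 4 and 6 and averaged 141 ± 26.5 CPM in KO and 39.6 ± 9.43 CPM in WT on day 6 (SD, n = 4 each). Antxr2, whose product takes up collagen VI in mouse, was called lower on days 0, 1 and 4 and averaged 25.9 ± 5.91 CPM in KO and 94.7 ± 37.9 CPM in WT on day 0 (SD, n = 4 each). Cspg4, the NG2 proteoglycan that binds collagen VI, was called lower on all 5 days, with log2 fold changes between -1.77 and -0.95. Itga11, an integrin subunit for collagens, was called higher on days 4 and 6 and averaged 5.09 ± 5.83 CPM in KO and 0.0709 ± 0.0828 CPM in WT on day 6, a wide spread (SD, n = 4 each).

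Of 10 tested genes of muscle fibre adhesion and disease (11 listed), 2 were higher and 1 lower on day 0, and 0 were higher and 2 lower on day 6, with a median of -0.34 on day 6. Itga7, the laminin receptor subunit of muscle, was called lower on all 5 days (log2 fold changes of -1.79 to -1.41). Sgcd, delta-sarcoglycan, was higher on days 0 and 1 (1.32 and 1.61) and lower on days 4 and 6 (-1.19 and -1.44). Sgca, alpha-sarcoglycan, was higher on days 0, 1 and 2. Lama2, the laminin chain of the muscle basement membrane, was called higher on day 1 alone (1.32).

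Markers of other cell types were measured because collagen VI is made mainly by fibroblasts in muscle. Of 12 fibroblast and fibro-adipogenic markers, 8 were tested. Called higher and lower in KO were 2 and 1 on day 0, 2 and 1 on day 1, 4 and 1 on day 2, 3 and 2 on day 4, and 3 and 4 on day 6. Their summed level was 486 to 1051 CPM in KO and 217 to 809 CPM in WT on day 0, and 173 to 289 CPM in KO and 156 to 836 CPM in WT on day 6, overlapping on both days. Pdgfra was called higher on all 5 days and averaged 27.6 ± 8.68 CPM in KO and 11.0 ± 2.22 CPM in WT on day 0 (SD, n = 4 each). Tcf7l2 was also called higher on all 5 days, and Pdgfrb on days 2, 4 and 6. Osr1 was called lower on all 5 days and had 0 counts in KO on days 4 and 6, against 0.287 and 0.371 CPM in WT. Thy1 and Tcf21 had 0 counts in every library. The part of these markers in the collagen VI results was not tested.

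Of the 14 myogenic markers, 0 were higher and 6 lower in KO on day 0, and 1 was higher and 5 lower on day 6, with medians of -1.36 and -1.02. Myh3, embryonic myosin heavy chain, averaged 638 ± 236 CPM in KO and 5420 ± 996 CPM in WT on day 6, and the fusion gene Mymk 421 ± 114 CPM in KO and 1756 ± 154 CPM in WT (SD, n = 4 each). Myh3, Mymk and Mylpf, a fast myosin light chain, were called lower in KO on all 5 days, and Ncam1, a cell adhesion molecule, on days 2, 4 and 6. Cdh15 was also called lower on days 4 and 6, and Myog, Mymx and Myf5 on day 4 but not on day 6. In all, 8 markers were called lower on day 4. Some members were called on neither day 4 nor day 6. Among them were the skeletal actin Acta1 (adjusted p = 0.0613 and 0.0863 by edgeR) and the creatine kinase Ckm (adjusted p = 0.241 and 0.507). Acta1 and Ckm were called lower on days 1 and 2. Tnnt3 and Des were called on no day. The 1 marker called higher on day 6 was Myod1, and it was called on days 1, 2 and 4 as well. The part of these markers in the collagen VI results was not tested. Of 4 tested osteoblast and chondrocyte markers (8 listed), edgeR called 0 on day 0 (1 at an unadjusted p under 0.05) and 3 higher on day 6, with median summed levels of 121 CPM in KO and 48.7 CPM in WT. They were Runx2, Alpl and Sox9, and Sp7 was called on no day. Alpl was near the floor, at 0.672 ± 0.554 CPM in KO and 0 CPM in WT on day 6, with overlapping groups (SD, n = 4 each). Sox9 averaged 108 CPM in KO and 41.3 CPM in WT on day 6. It had been called lower in KO on day 1 (log2 fold change -0.67). Of 5 tested smooth muscle and pericyte markers (8 listed), edgeR called 0 on day 0 (1 at an unadjusted p under 0.05), and 1 higher and 1 lower on day 6, with sums of 4052 to 6664 CPM in KO and 2687 to 4089 CPM in WT. On day 6 these were Mcam (higher) and Abcc9 (lower), while Acta2 was called higher on day 1 alone and Cnn1 on no day. Of 2 tested adipocyte markers (6 listed), 1, Pparg, was lower on days 4 and 6, and Fabp4 was called on no day. The 8 endothelial and immune markers summed to at most 2.96 CPM in KO and 8.83 CPM in WT, and of the 2 tested, Kdr and Cd68, edgeR called both lower on day 0 and 0 on day 6 (0 at an unadjusted p under 0.05).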

How the data were processed

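RNA was sequenced from 39 C2C12 libraries in 10 groups of genotype and day with a stranded poly(A) kit (TruSeq Stranded mRNA), per the labels' protocols. The authors deposited raw read counts per gene, and the submitters' processing notes name FastQC 0.11.9, STAR 2.7.9, featureCounts 2.0.3, DESeq2 and the builds GRCm38 and GRCh38. The annotation and strand setting are not given in the sources used here. Of the deposited counts above 0, 64.4% were even, and halved counts were tried as an alternative. In the table, 1 column matches no sample and was not used.

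Gene names and lengths came from GENCODE M21 (GRCm38), which matched all 29980 gene IDs. Gene Gm36970 overlaps Col6a3 by 1859 bases without sharing an exon and is not counted in the table. Counts were scaled with TMM factors (0.904 to 1.05) and fitted with edgeR 4.0.16 (quasi-likelihood F-test, robust, filterByExpr) in R 4.3.3, with 1 mean per group, 29 residual degrees of freedom and Benjamini-Hochberg adjustment over 13780 genes. The code was tested on simulated data. Log2 CPM used a prior count of 2, and SEs came from the spread of log2 CPM within groups. The SEs beside edgeR log2 fold changes are therefore not errors of that fit. Within-library log2 differences were compared by exact two-sided permutation over libraries. Intervals and limits from counts cover counting error only. The genes followed and the lists were chosen with earlier results of these data known. Of each list, every gene was counted, and the genes named first were the 4 with the smallest p over the 5 days, fewer where fewer were tested, and markers that define a cell type. Any other gene named was chosen after its values were seen.

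Replicate numbers in the labels are shared between groups. Deviations of same-numbered KO and WT libraries from their group means correlated above 0.1 in every pair on days 0, 1, 2 and 4 (r between 0.126 and 0.571), so the numbers were taken to pair the libraries there, from the data and not from the labels. On day 6 (r between -0.0172 and 0.185) they were not. Alternatives were DESeq2 1.42.0, its size factors, no filter, replicate blocks, single-day fits, halved counts and each library left out.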

Additional observations from a re-analysis of the deposited data

Results flagged for a closer look

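Within groups of 4 libraries, 4 of 45 sets of values held a library far from the others by Dixon's test at the 95% level, a test that chance alone flags in about 1 set of 20. In KO, replicate 1 was low for Col6a1 on day 4, at 8.18 log2 CPM against 9.84 to 10.16 in the other 3 libraries, and on day 6, at 8.36 against 9.24 to 9.30. The same KO library of day 4 was high in the balance of Col6a3 to the linked pair, at -0.64 against -2.27 to -2.03. In WT on day 4, replicate 5 was high in that balance, at 4.55 against 2.02 to 2.43. Without WT day 4 replicate 5 the KO minus WT difference of that day was -3.94.

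The change since day 0 differed between KO and WT by the test of genotype by day for all 3 chains. For Col6a1 the difference was 4.90 on day 4 and 5.06 on day 6. For Col6a2 it was 4.65 on day 4 and 4.53 on day 6. For Col6a3 it was 3.12 on day 4 and 3.41 on day 6. These are the differences given in the report, with their errors.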

How the results depend on the processing

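No called result reversed direction under any alternative, whereas some values that were not called changed sign. The log2 fold change of Col6a3, KO over WT on day 1, lay between -0.12 and 0.85 without any 1 library. Of 544 alternative values of the main comparisons, 533 kept their side of the threshold, and their direction where called. The other 11 all came from leaving out 1 library in the exact test of the balance of Col6a3 to the linked pair, KO against WT. On day 0 the values without 1 library lay between -4.09 and -3.00, with adjusted p = 0.0571 where a KO library was left out. On day 2 they lay between -3.34 and -3.03, with adjusted p between 0.0667 and 0.1, since fewer libraries raise the smallest p the exact permutation test allows. With DESeq2, its size factors in edgeR, no filter, halved counts, single-day fits, a prior count of 0.5 or either replicate block, every call of the chains was as in the report. Over all genes, DESeq2 called 190 genes and edgeR 75 in the genotype by day test of day 2. With the replicate block over all days the log2 fold change of KO over WT on day 6 was 8.20 for Col6a1, 8.82 for Col6a2 and 3.91 for Col6a3. On day 6, where the numbers were not taken to pair the libraries, 5 of 8 libraries correlated best with their own number. The count was also 5 of 8 on day 0, where they were taken to pair, so it does not separate these 2 days. It was 8 of 8 on day 1, 6 of 6 on day 2 and 7 of 8 on day 4. Without WT day 0 replicate 4 and KO day 1 replicate 3 together, the WT day 2 against day 0 values were -0.68 for Col6a1 (adjusted p = 0.421) and -1.04 for Col6a2 (adjusted p = 0.203), no longer called. Depth limits the WT values of Col6a2 on days 4 and 6, which rest on 52 and 26 counts over 4 libraries.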

Other observations

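Among the fibroblast and fibro-adipogenic markers, Cd34 and Ly6a were called lower in KO on day 6, while Pdgfra, Pdgfrb and Tcf7l2 were called higher. Cd34 and Ly6a were chosen after their values were seen. Cd34 averaged 2.50 ± 0.98 CPM in KO and 10.7 ± 4.44 CPM in WT on day 6, without overlap (SD, n = 4 each; log2 fold change -2.06, adjusted p = 0.00322 by edgeR). It was called lower on day 4 as well. Ly6a averaged 145 ± 47.5 CPM in KO and 422 ± 289 CPM in WT on day 6, with overlapping groups (log2 fold change -1.54, adjusted p = 0.0154 by edgeR). On day 4 it was not called (adjusted p = 0.0681 by edgeR). Gli1, of the same list, had a log2 fold change of 0.29 on day 6 and was not called. On day 0, Cd34 averaged 22.0 CPM in KO and 18.3 CPM in WT, and neither Cd34 nor Ly6a was called.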
